A study of Homo sapiens with 12 samples.

Results

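The 8 genes MALAT1, NEAT1, NORAD, OIP5-AS1, KCNQ1OT1, MIAT, TUG1 and CYTOR were taken by name as abundant nuclear or regulatory long noncoding RNAs (lncRNAs). They are 8 of the 35638 genes with a count in any table, of which 8688 are typed as lncRNA in GENCODE release 44. All 8 had a count in at least 1 library of HEK293T cells, and 7 of 8 in eHAP1 WT cells, where CYTOR had none. The study set a single-cell method, LAST-seq, beside CEL-seq2 and SMART-seq V4 in HEK293T cells and then applied LAST-seq to eHAP1 cells with and without SCC4. In LAST-seq the poly(A) tail of an RNA anneals to a primer that carries a T7 promoter, and T7 RNA polymerase transcribes the RNA itself. In CEL-seq2 the RNA is reverse transcribed from an oligo-dT primer and made double stranded before T7 transcription, and in SMART-seq V4 it is reverse transcribed and amplified by PCR as full-length cDNA.

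HEK293T is a human embryonic kidney line. LAST-seq was run on 2 libraries of 10 live, flow-sorted HEK293T cells each, on 1 library of 10 wells that each received a single-cell amount of HEK293T lysate, and on 1 library of 10 wells of 15 pg total RNA. CEL-seq2 was run on 2 libraries of 10 cells and 1 library of 10 lysate wells, and SMART-seq V4 on 6 single-cell wells and 2 sets of lysate wells with 10 and 16 wells. The libraries of a group also differed in the synthetic spike-in RNAs added to the lysis mix (A60, ERCC or both). eHAP1 is a haploid human line derived from a leukaemia line, and live G1 haploid cells were sorted. Unedited cells (WT) and SCC4KO cells, which came from single cells expanded after Cas9 editing of SCC4 (gene symbol MAU2), were deposited as 1 sample per genotype, each with 2 batches of 73 and 75 WT cells and 77 and 76 SCC4KO cells. The 2 batches of a genotype and the 2 libraries of an assay are labelled with nothing that makes them separate cultures, so p-values measure only the spread between these libraries, which may be technical.

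lncRNAs of this group are transcribed by RNA polymerase II and act as RNA. MALAT1 sits in nuclear speckles, the stores of splicing factors, and NEAT1 is the scaffold of paraspeckles, nuclear bodies that hold RNA-binding proteins such as NONO and SFPQ. KCNQ1OT1 is transcribed antisense inside KCNQ1 and silences neighbouring genes on the paternal chromosome, while NORAD is largely cytoplasmic and binds RNA-binding proteins. The 3′ end of MALAT1 and that of the long NEAT1 form are unusual, because both are cut by RNase P upstream of a tRNA-like RNA and protected by a triple helix in which a genomic A-rich tract pairs with U-rich stretches, in place of a poly(A) tail added after an AATAAA signal.

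The RNA ends are shown first because every assay here captures RNA through A residues, which can be a poly(A) tail added to the RNA or A residues that the gene itself encodes. Sequences are reference GRCh38, written 5′ to 3′ on the strand of the gene. Capitals mark the genomic A run or the poly(A) signal AATAAA nearest to the end. The long NEAT1 form has no capitals, since its last 90 bases held neither.
MALAT1 mature 3′ end, chr11:65506027-65506116, plus strand: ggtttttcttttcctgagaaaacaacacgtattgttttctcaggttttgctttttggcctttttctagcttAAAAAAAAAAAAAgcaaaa
NEAT1 long form 3′ end, chr11:65445451-65445540, plus strand: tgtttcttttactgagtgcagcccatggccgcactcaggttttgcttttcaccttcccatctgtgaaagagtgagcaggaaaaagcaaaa
NEAT1 short form 3′ end, chr11:65426424-65426513, plus strand: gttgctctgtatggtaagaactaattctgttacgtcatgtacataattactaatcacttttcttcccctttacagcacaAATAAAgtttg
NORAD 3′ end, chr20:36045618-36045707, minus strand: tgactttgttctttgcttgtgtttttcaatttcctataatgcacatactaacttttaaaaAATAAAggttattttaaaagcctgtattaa
The tRNA-like RNA that is cut off MALAT1, mascRNA, follows directly at chr11:65506117-65506174. Of the 60431 longest transcripts of annotated genes, 34.4% held AATAAA in their last 90 bases. The short NEAT1 form, NORAD and the longest transcript of KCNQ1OT1 held it too.

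Runs of 12 or more genomic A inside the transcript are shown next, since an oligo-dT primer can anneal there as well as at a tail. The longest transcript of KCNQ1OT1 (91667 bases) held 9 such runs, the longest of 29 A, and that of NEAT1 (22743 bases) held 3. The longest run of KCNQ1OT1, the member with the most runs, is in capitals with its surroundings.
KCNQ1OT1 longest A run, chr11:2610692-2610770, minus strand: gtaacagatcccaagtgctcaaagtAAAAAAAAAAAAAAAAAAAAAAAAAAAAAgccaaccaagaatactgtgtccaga
MIAT held 2 runs, MALAT1, OIP5-AS1, TUG1 and CYTOR 1 each, and NORAD none. The MALAT1 run is the A tract of the mature 3′ end shown above. It lies inside the longest annotated transcript only because that transcript runs on past the cut. OIP5-AS1 had a run of 29 A, MIAT of 24, TUG1 of 18, and MALAT1 and CYTOR of 13.

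In GRCh38, MALAT1 lies at chr11:65497640-65508073 on the plus strand, and NEAT1 upstream of it at chr11:65422774-65445540 on the plus strand, each as 1 exon in its longest transcript. KCNQ1OT1 lies at chr11:2597308-2700003 on the minus strand, inside the span of the protein-coding KCNQ1, which runs on the opposite strand. NORAD is a single exon at chr20:36045618-36051018 on the minus strand, and OIP5-AS1 lies at chr15:41283958-41322392 on the plus strand, where it overlaps OIP5 on the opposite strand and NUSAP1 on the same strand. MIAT lies at chr22:26646411-26676475 on the plus strand, TUG1 at chr22:30969245-30979395 on the plus strand, and CYTOR at chr2:87454781-87636740 on the plus strand. TUG1 is typed protein coding in this annotation, and the other 7 are typed lncRNA. Whether reads were counted by strand is not given in the sources used here. In bases that a member shares with a gene on the opposite strand, the strand of a read is therefore not known. CYTOR shares 99.1% of 6657 aligned bases with MIR4435-2HG, and NORAD shares 95.9% of 4614 with OVCH1-AS1, so their counts are uncertain where reads could be split between copies.

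Depth set the precision of each level. The HEK293T libraries held 798047 to 1554129 unique molecular identifiers (UMIs, which mark single captured molecules) in LAST-seq and CEL-seq2, and 4897271 to 12563463 reads in SMART-seq V4, whose values are reads without UMIs and were made from equal numbers of reads per well. The eHAP1 batches held 6434247 to 12301326 UMIs. Levels below are counts (UMIs or reads) per 1000000 gene counts of a library or well, written CPM, ranges in parentheses are exact 95% intervals, and these cover counting error only. Of 5 HEK293T markers, 2 to 4 had a count in each HEK293T library (summed level 42.1 to 201 CPM), PAX2 being at 0 in most of them, but 3 of 5 also had counts in eHAP1 WT (40.3 and 45.1 CPM) and 5 of 5 in SCC4KO cells (83.0 and 76.5 CPM), so these markers do not tell the lines apart. Of 6 blood markers, none had a count in eHAP1 WT cells and only CD34 did in SCC4KO cells, with 7 and 11 UMIs, so the blood origin of eHAP1 was not visible in these markers. The 6 SMART-seq single-cell wells matched 6 of the 16 wells of the second lysate set as closely as repeated draws from 1 library would, so the lysate set is also given without them. Whether the matching wells held cells or lysate cannot be told here, so the input behind the SMART-seq cell values is uncertain. In the first lysate set, 3 pairs of wells matched in the same way. The mean squared difference over the summed count, which is about 1 for such draws, was 0.940 to 1.001 for the matches with cells, 1.03 to 1.199 for these 3 pairs, which were kept, and 11.5 or more for the other 487 pairs. The LAST-seq HEK293T libraries all carried the same 10 well barcodes, and the CEL-seq2 libraries another shared set of 10, since both use a fixed set of indexed primers.

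In single HEK293T cells, MALAT1, NEAT1, KCNQ1OT1, TUG1 and MIAT were lower in LAST-seq than in CEL-seq2, by 4.51- to 149.6-fold, while NORAD, OIP5-AS1 and CYTOR did not pass the test. MALAT1 was scarce in LAST-seq, with 12 and 16 UMIs in 10 cells each. The 8 members together took 0.0352% and 0.0393% of the UMIs of the LAST-seq cell libraries, and 0.357% and 0.254% of those of CEL-seq2. Genes typed lncRNA took 1.31% to 1.45% of UMIs in LAST-seq HEK293T libraries and 4.56% to 4.99% in CEL-seq2.

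**Figure D1:**
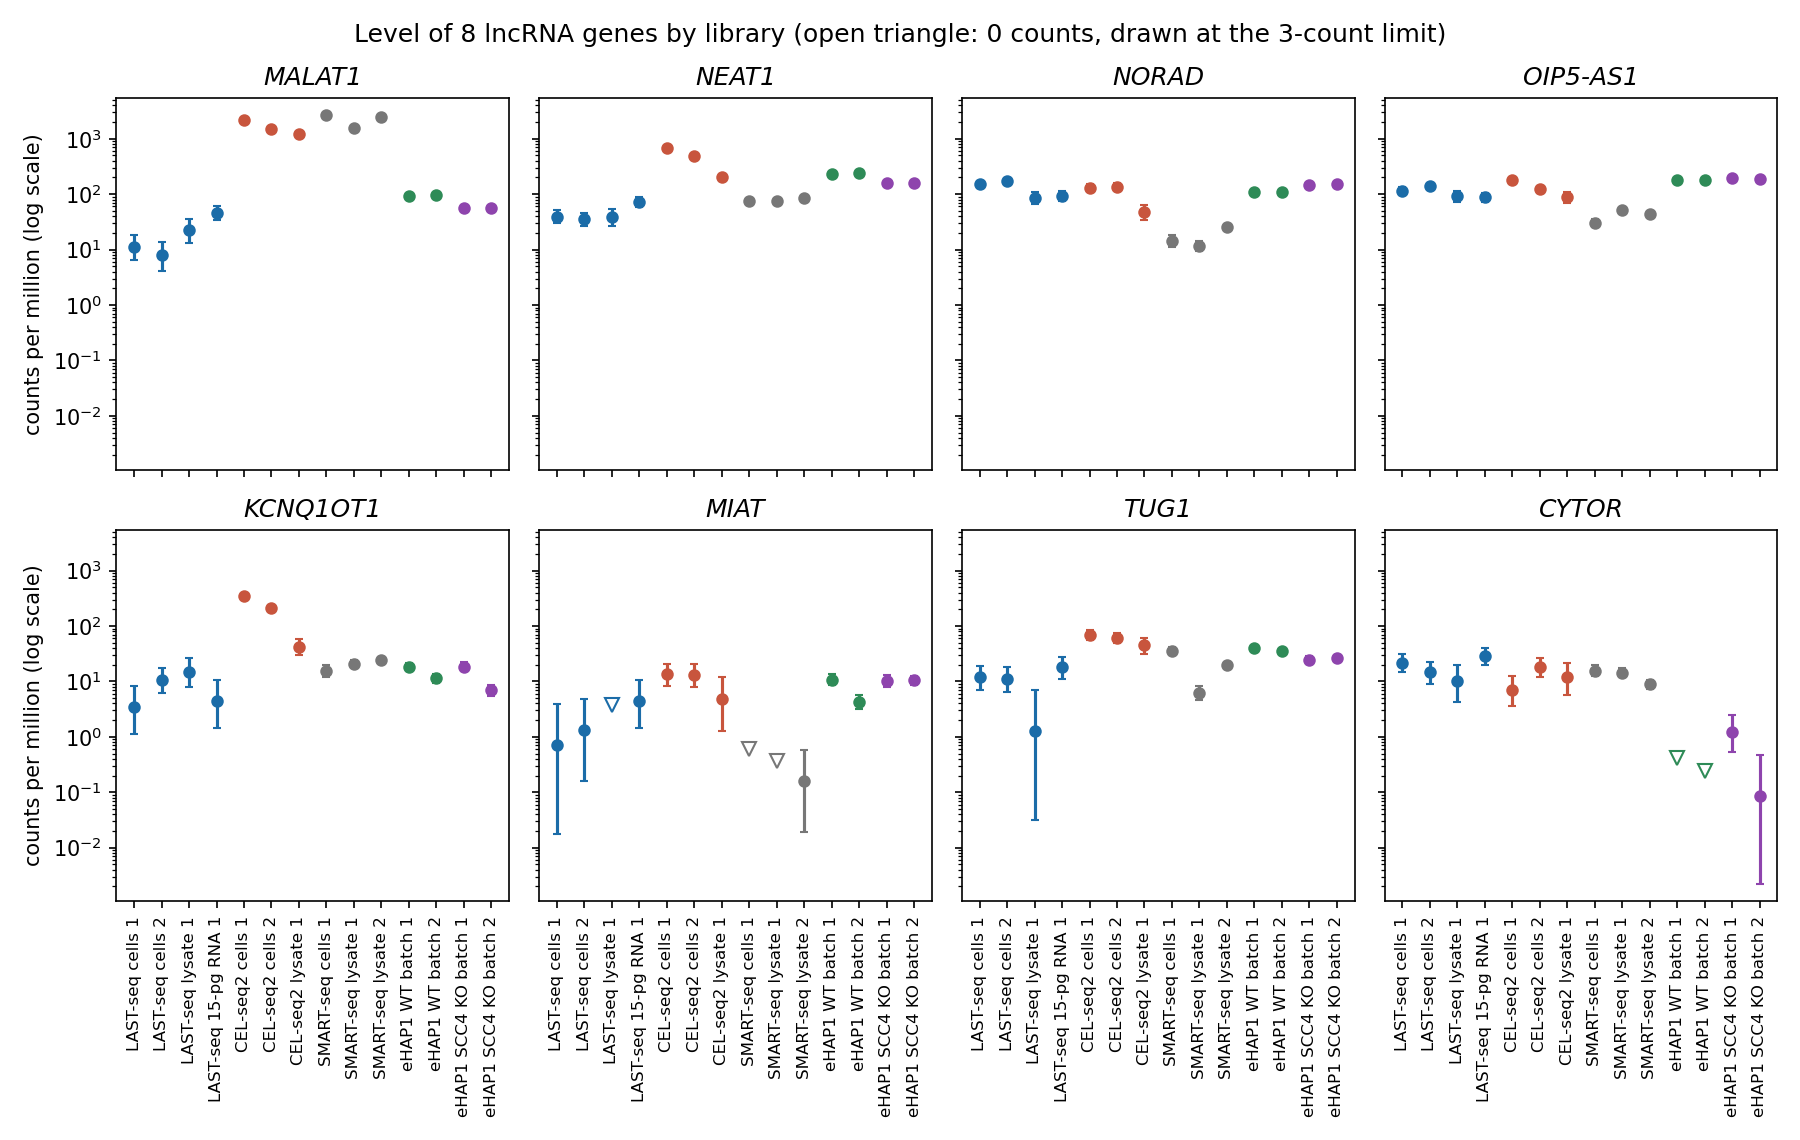
Level of each member (CPM, log axis) in each of the 14 libraries or batches, coloured by assay and cell line, with exact 95% Poisson bars and open triangles at the 3-count limit where the count was 0. MALAT1 spans 7.95 to 2650 CPM, whereas NORAD lies between 85.2 and 172 in all LAST-seq libraries and batches. SMART-seq values are reads and the others UMIs.

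MALAT1 stood at 11.2 and 7.95 CPM in the 2 LAST-seq cell libraries, from 16 and 12 UMIs, and at 2152 and 1491 in the 2 CEL-seq2 libraries, from 3344 and 2171 UMIs. Over 20 cells per assay the lowest, median and highest level was 0, 7.38 and 47.6 in LAST-seq against 379, 1749 and 4506 in CEL-seq2, so no LAST-seq cell reached the lowest CEL-seq2 cell. A single LAST-seq cell gave at most 5 MALAT1 UMIs. The 20 cells of an assay came from 2 libraries. The share of all genes whose cells did not overlap between the assays was not computed. The fitted difference was -7.22 ± 0.42 (log2, SE, n = 2 libraries each), or 149.6-fold lower in LAST-seq, with an adjusted p of 1.80e-05 in edgeR's quasi-likelihood test. Here and below the SE is not an output of the fit. It is the absolute log2 difference over the square root of the test's F statistic.

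NEAT1, the paraspeckle scaffold, stood at 39.3 and 35.8 CPM in LAST-seq against 680 and 483 in CEL-seq2. Its cells ran from 16.1 over a median of 37.9 to 74.2 in LAST-seq and from 102 over 511 to 2905 in CEL-seq2, again without overlap. LAST-seq was 12.3-fold lower, at -3.62 ± 0.31 (log2, SE, n = 2 each, edgeR adjusted p = 0.000214). KCNQ1OT1, the imprinted antisense RNA, gave 5 and 16 UMIs in LAST-seq (3.51 and 10.6 CPM) against 532 and 308 in CEL-seq2 (342 and 212 CPM). Each CEL-seq2 cell, with 58.9 CPM or more, was above each LAST-seq cell, with 22.3 or fewer. The difference in KCNQ1OT1 was -4.94 ± 0.46 (log2, SE, n = 2 each, edgeR adjusted p = 0.000302), or 30.6-fold, and 20.8-fold without the first and 58.1-fold without the second LAST-seq library.

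TUG1, an RNA found in nucleus and cytoplasm, stood at 11.9 and 11.3 CPM in LAST-seq against 69.5 and 61.8 in CEL-seq2, a difference of -2.17 ± 0.40 (log2, SE, n = 2 each, edgeR adjusted p = 0.00507) or 4.51-fold. Its cells overlapped, with 0 to 21.0 CPM in LAST-seq and 5.12 to 148.5 in CEL-seq2. MIAT, an RNA of nuclear bodies first known from heart disease genetics, had 1 and 2 UMIs in LAST-seq against 21 and 19 in CEL-seq2, and was detected in 3 of 20 LAST-seq and 15 of 20 CEL-seq2 cells. Its difference was -3.30 ± 0.78 (log2, SE, n = 2 each, edgeR adjusted p = 0.0135). The MIAT call was lost when any 1 of the 4 libraries was left out, with adjusted p between 0.0844 and 0.189, and log2 values between -3.72 and -2.96.

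The other 3 members did not pass the test. NORAD, the cytoplasmic RNA, stood at 150.2 and 172 CPM in LAST-seq against 132 and 136 in CEL-seq2, a difference of 0.58 ± 0.28 (log2, SE, edgeR adjusted p = 0.156), while its cells spread from 109 to 235 in LAST-seq and from 28.3 to 633 in CEL-seq2. OIP5-AS1, which is known to bind the protein HuR (ELAVL1), stood at 114 and 140.4 in LAST-seq against 178 and 122 in CEL-seq2, a difference of 0.09 ± 0.29 (log2, SE, edgeR adjusted p = 0.844) whose sign turned with the scaling by library size alone (-0.27) and without the second CEL-seq2 library (-0.068). CYTOR, a cytoplasmic RNA linked to cell growth, stood at 21.8 and 14.6 in LAST-seq against 7.08 and 18.5 in CEL-seq2, a difference of 0.79 ± 0.64 (log2, SE, edgeR adjusted p = 0.400) or 1.73-fold, and 1.14-fold without the first and 3.43-fold without the second CEL-seq2 library. None of these 3 differences was larger than the spread between libraries by this test.

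The test was thus passed by 5 of 8 members, all 5 lower in LAST-seq, whereas 26.2% of the 11271 genes tested were called, 14.8% as lower. Among the 525 genes typed lncRNA that were tested, 42.7% were called and 36.4% were lower. The median log2 difference was -2.73 over the members, -1.09 over the lncRNA genes and -0.05 over all genes tested. Among genes tested with an annotated transcript, 18.9% held a run of 12 or more A in their longest transcript. These genes had a median log2 difference of -0.38 and 21.1% were lower in LAST-seq, against 0.03 and 13.3% of genes without a run, but their transcripts were also longer (median 5662.5 against 3286 bases). The part of A runs, transcript length or type of 3′ end in the members' differences was not tested.

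**Figure D2:**
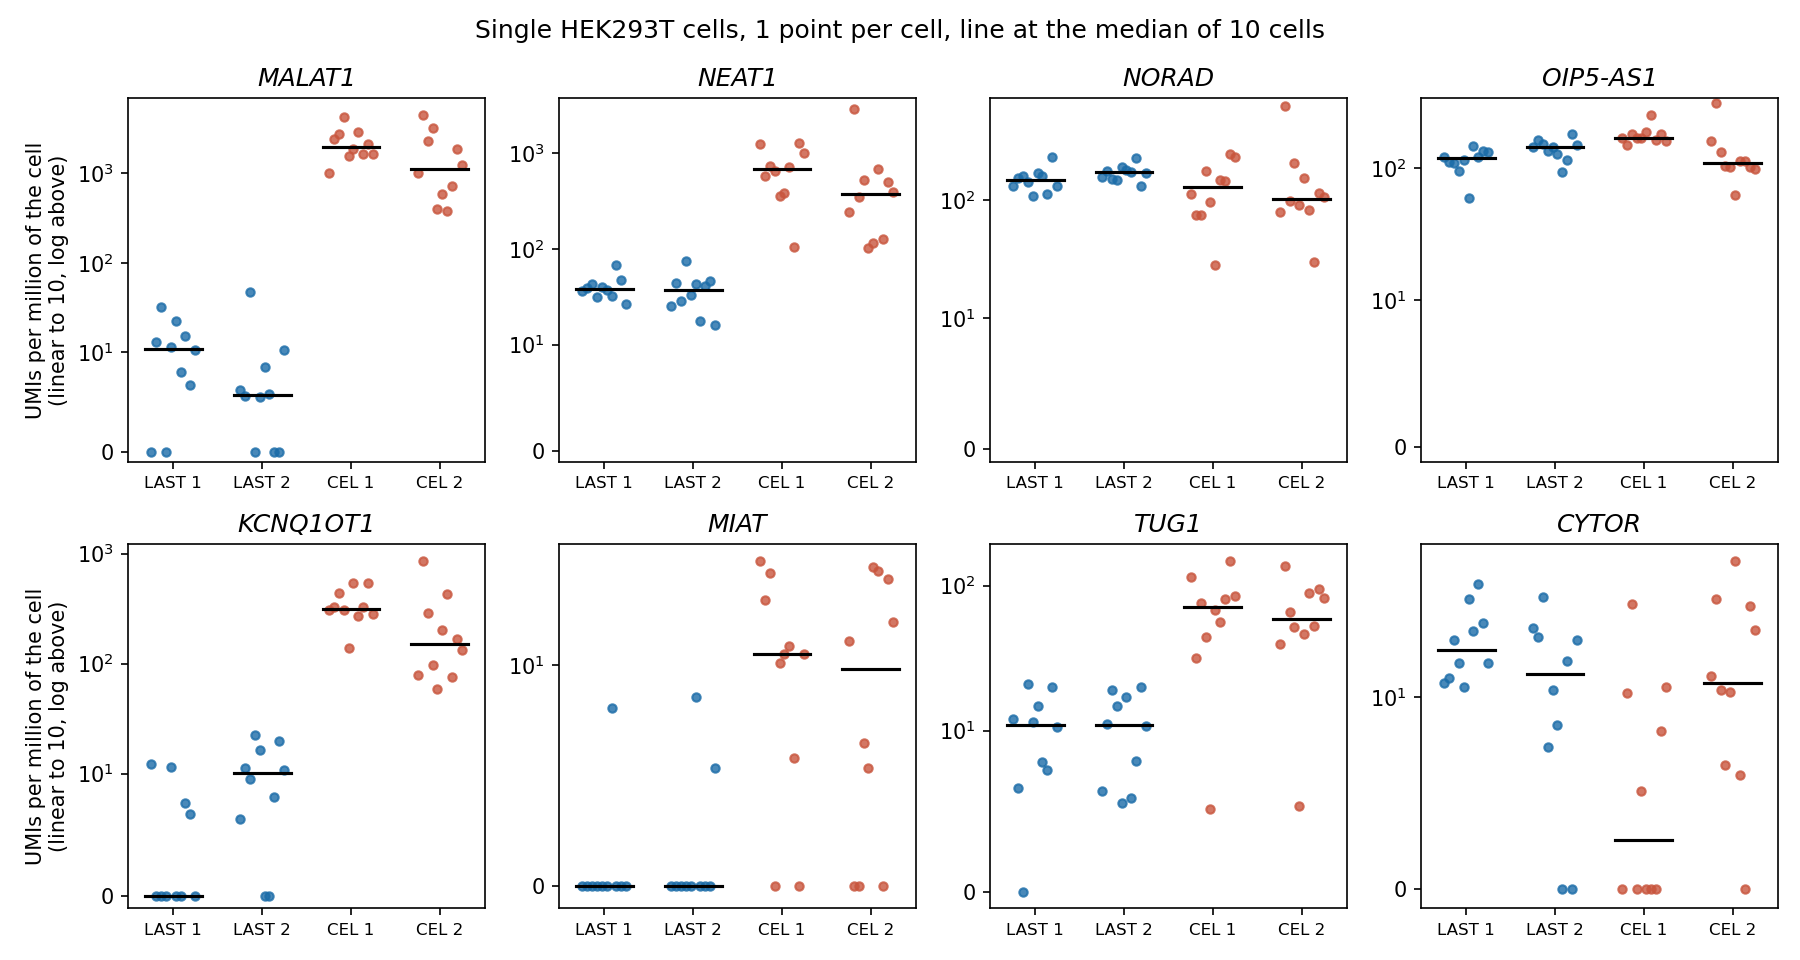
Level of each member in each of 20 LAST-seq and 20 CEL-seq2 HEK293T cells (CPM of the cell's total, linear to 10 and logarithmic above), with a line at each median. MALAT1, NEAT1 and KCNQ1OT1 do not overlap between the assays, while the other members do. The share of all genes without overlap was not computed, and the cells of an assay come from 2 libraries.

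In each list of mRNAs whose proteins work with these RNAs a few genes passed the test, beside the 26.2% of all genes. Of 9 paraspeckle protein genes tested, RBM14 (log2 1.07, edgeR adjusted p = 0.0496) and HNRNPK (0.88, adjusted p = 0.0449) were higher in LAST-seq and PSPC1 lower (-1.21, adjusted p = 0.0265). Of 8 genes of nuclear speckle proteins and MALAT1 partners, SRSF2 was higher (1.81, adjusted p = 0.00536) and SRRM1, a speckle protein of the spliceosome, lower (-4.03, adjusted p = 0.000825). Of 5 protein partners of NORAD and OIP5-AS1, ELAVL1 was higher (2.64), and of 3 tested coding genes of the KCNQ1OT1 domain, CD81 was higher (1.99). The calls of SRRM1 and ELAVL1 held under each setting run, although SRRM1 stood at -5.03 without the first and -3.38 without the second LAST-seq library. RBM14 lost its call with DESeq2 (adjusted p = 0.105), with library size alone (0.221), with no filter (0.0704) and without any 1 library. HNRNPK lost it with library size alone (0.190), with the replicate block (0.0654), without either LAST-seq library and without the CEL-seq2 cell that stood apart, and PSPC1 with DESeq2 (0.0608) and without 3 of the 4 libraries in turn. SRSF2 lost it without either LAST-seq library (0.0648 and 0.0741) and CD81 without the first (0.0512).

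Reads in place of UMIs gave a similar picture for MALAT1, NEAT1, KCNQ1OT1 and MIAT, which stayed more than 2-fold lower in both LAST-seq libraries against the CEL-seq2 library with read counts (MALAT1 171- and 66.6-fold, NEAT1 17.6- and 20.2-fold). TUG1 did not, at 1.16- and 6.804-fold lower. In the first LAST-seq library TUG1 had 19.3 reads per UMI, 86.3% of its reads coming from 1 well, against a median over genes of 4.23. MALAT1 in the second had 16.2, with 75.3% of reads from 1 well, against a median of 4.01.

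The members differed in how far their level depended on assay and input, as the order of levels shows. Groups are called apart only where the ranges of their libraries with counting intervals do not overlap. SMART-seq CPM are shares of reads and the others shares of UMIs, so the order across them compares unlike measures. Intervals on reads leave out amplification, and calls with SMART-seq are a description only: MALAT1 had a CV of 0.515 over its 6 cells. The second SMART-seq lysate set is used here with its matching wells. MALAT1 was highest in SMART-seq cells (2650 CPM), followed by SMART-seq lysate and CEL-seq2 cells, which overlapped, CEL-seq2 lysate, eHAP1 WT, and a last set of eHAP1 SCC4KO, LAST-seq RNA, LAST-seq lysate and LAST-seq cells in which neighbours overlapped. NEAT1 was highest in CEL-seq2 cells, followed by eHAP1 WT and CEL-seq2 lysate, which overlapped, SCC4KO, a SMART-seq and LAST-seq RNA set of overlapping neighbours, and LAST-seq lysate and cells, which overlapped. Unlike MALAT1, NEAT1 stood in SMART-seq cells at 73.9 CPM of reads, not at its level in UMIs in CEL-seq2. KCNQ1OT1 was apart only at the top, with CEL-seq2 cells above CEL-seq2 lysate and both above all other groups, whose neighbours overlapped.

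NORAD had its highest mean in LAST-seq cells, and its neighbours overlapped down to LAST-seq lysate, with CEL-seq2 lysate and then both SMART-seq groups (11.8 to 25.6) below. For OIP5-AS1, neighbours from eHAP1 SCC4KO down to LAST-seq RNA overlapped, and SMART-seq lysate and then SMART-seq cells were lower. For TUG1, CEL-seq2 cells and lysate, eHAP1 WT and SMART-seq cells overlapped in turn and stood above a lower set from SCC4KO to LAST-seq lysate, whose neighbours overlapped. For CYTOR only the eHAP1 groups stood apart, below all HEK293T groups. MIAT had no neighbours apart.

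Lysate and purified RNA were set beside intact cells to ask whether RNAs of the nucleus were recovered less from whole cells. In LAST-seq, MALAT1 was the 1 member that stood over 2-fold higher in both. Its level was 11.2 and 7.95 CPM in cells, 22.6 in lysate, from 18 UMIs, and 46.0 in 15-pg RNA, from 51 UMIs. Over cells, lysate was 2.01-fold (0.967 to 4.21) and 2.84-fold (1.29 to 6.46) higher for the 2 cell libraries, the first interval including equality, and RNA 4.10-fold (2.30 to 7.70) and 5.79-fold (3.04 to 11.9) higher. Each RNA well held MALAT1, from 15.3 over a median of 42.7 to 90.2 CPM, and 9 of 10 lysate wells did. MALAT1 in purified RNA was still below the 1219 CPM of CEL-seq2 lysate. The single lysate and RNA libraries give no replicate error of their own, and no test was made. Genes encoded by mitochondria took 16.6% and 14.3% of UMIs in cells, 19.2% in lysate and 18.7% in RNA, and with these genes and the members left out of the totals the members past 2-fold in lysate and in RNA were the same.

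NEAT1, the other nuclear-body RNA, stood at 39.3 and 35.8 CPM in LAST-seq cells and 38.8 in lysate, ratios of 0.988 and 1.09, and at 73.0 in RNA, 1.86- and 2.04-fold the cell libraries. KCNQ1OT1 was 4.29-fold (1.41 to 15.5) and 1.42-fold (0.613 to 3.20) higher in lysate, from 12 UMIs, and with 5 UMIs in RNA it was 1.28 and 0.425 times the cell libraries. TUG1 was 9.52-fold (1.49 to 398) and 8.99-fold (1.41 to 376) lower in lysate, where it had 1 UMI, and 1.51- and 1.60-fold higher in RNA.

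NORAD, OIP5-AS1 and CYTOR stood lower in LAST-seq lysate without passing 2-fold against both libraries. NORAD had 85.2 CPM in lysate and 92.9 in RNA, against 150.2 and 172 in cells, so lysate was 1.76- and 2.01-fold lower. OIP5-AS1 had 91.5 and 87.5, with lysate 1.24- and 1.54-fold lower, and CYTOR 10.0 and 28.9, with lysate 2.17- and 1.45-fold lower. MIAT had no UMI in lysate and 5 in RNA.

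Past 2-fold against both cell libraries were 2 of 7 members tested in lysate (MALAT1 higher, TUG1 lower) and 1 of 7 in RNA (MALAT1 higher), MIAT having too few UMIs. At 1.5-fold, 4 of 7 passed in RNA (MALAT1, NEAT1 and TUG1 higher, NORAD lower), beside 29.9% of genes. At 2-fold the same was true of 22.8% of all genes in lysate (6.24% higher, 16.6% lower) and 15.2% in RNA (7.15% higher). Among genes typed lncRNA the shares were 14.8% higher and 14.6% lower of 520 in lysate, and 17.3% higher and 9.48% lower of 591 in RNA. The median gene was -0.25 and -0.33 (log2) in lysate against the 2 cell libraries and 0.02 and -0.07 in RNA, so genes were in the middle somewhat lower in lysate. The median lncRNA gene was 0.03 and 0.11 in lysate and 0.25 and 0.29 in RNA. In lysate the paraspeckle proteins SFPQ (3.16- and 2.25-fold) and RBM14 (2.64- and 2.46-fold) and the speckle-linked SON (2.69- and 3.11-fold), SRRM2 (2.205- and 2.03-fold) and METTL16 (4.37- and 5.50-fold) were lower, making 2 of 9 and 3 of 8 of their lists. Of 5 partners of NORAD and OIP5-AS1 none passed in lysate, and KHDRBS1 was lower in RNA (2.93- and 2.35-fold). Of the KCNQ1OT1 domain, NAP1L4 was lower in lysate (2.18- and 2.02-fold), SLC22A18 passed as higher in lysate on 6 UMIs against 3 and 3 in the cell libraries, and CDKN1C was higher in RNA (3.998- and 2.12-fold).

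**Figure D3:**
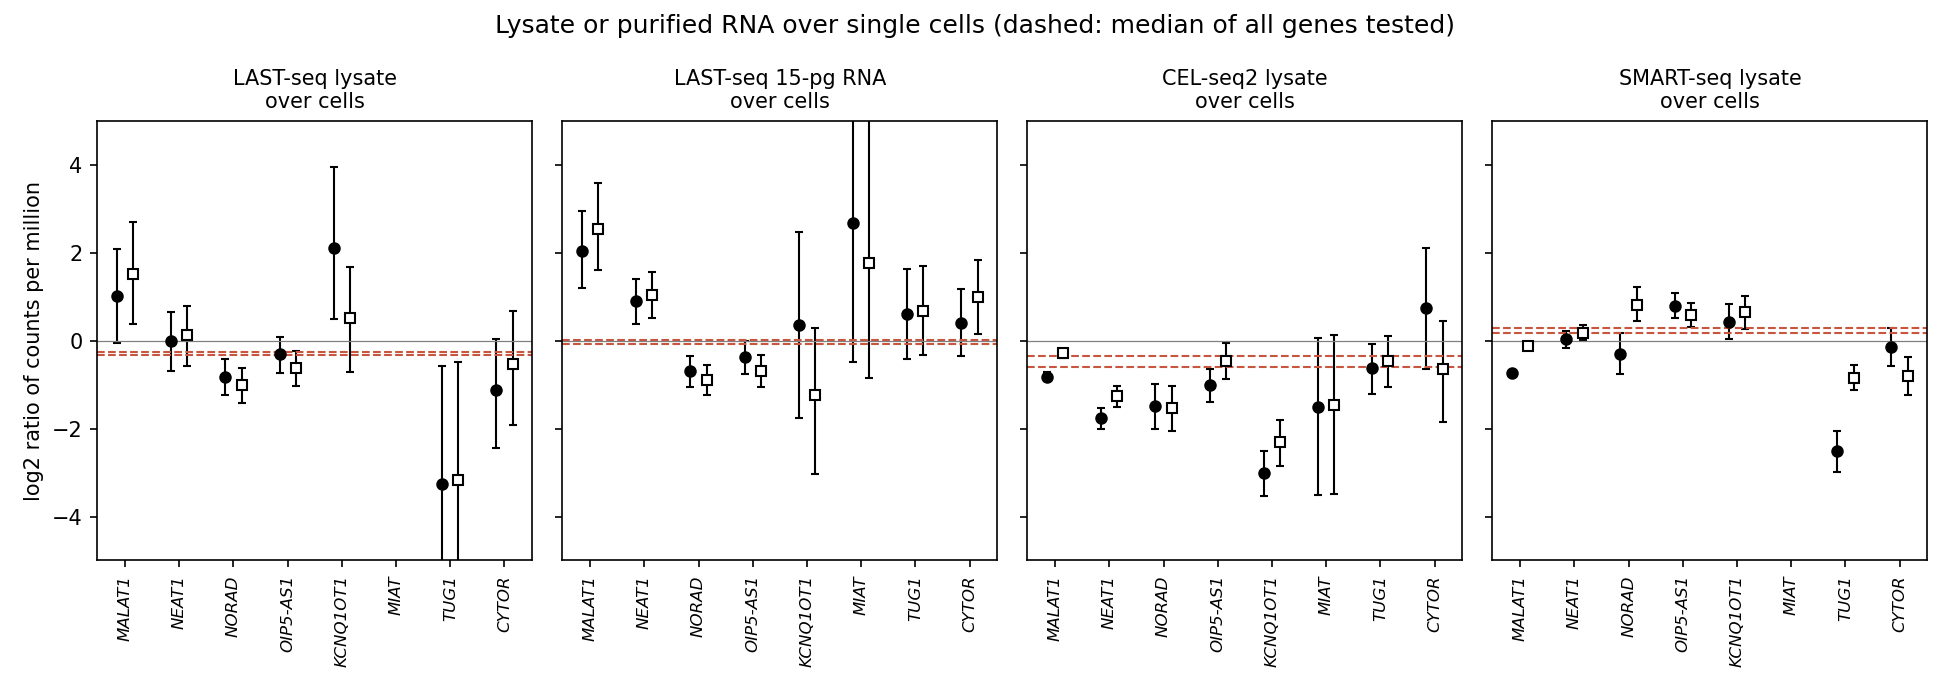
Ratio of lysate or 15-pg RNA to single cells for each member (log2 of CPM), with exact 95% bars that can run past the axis, a filled circle for the first and an open square for the second library pair, and dashed lines at the medians of all genes. MALAT1 lies above 0 in the LAST-seq panels and below 0 in the CEL-seq2 panel, and a member with a count of 0 in a pair has no point.

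In CEL-seq2 all members but CYTOR stood lower in lysate than in both cell libraries. Genes encoded by mitochondria took 14.5% of UMIs in this lysate against 7.47% and 9.23% in cells, and with these genes and the members left out of the totals the same 4 members passed 2-fold as with them. KCNQ1OT1 had 36 UMIs in lysate (42.6 CPM) and was 8.04-fold (5.73 to 11.6) and 4.97-fold (3.51 to 7.23) lower than in cells. NORAD, with 40 UMIs (47.3 CPM), was 2.79- and 2.88-fold lower, and NEAT1, with 170 (201 CPM), was 3.38- and 2.40-fold lower. MIAT was 2.86- and 2.76-fold lower, but it had only 4 UMIs in lysate and its intervals included equality.

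MALAT1 stood at 1219 CPM in CEL-seq2 lysate, 1.76- and 1.22-fold lower than in cells. OIP5-AS1 was 2.01- and 1.37-fold and TUG1 1.55- and 1.38-fold lower, and CYTOR was 1.67-fold higher and 1.57-fold lower. So 4 of 8 members passed 2-fold, all lower, beside 23.4% of all genes (19.1% lower) and a median gene at -0.60 and -0.35 (log2). With TMM scaling 2 passed, KCNQ1OT1 and MIAT, so that the calls of NEAT1 and NORAD were lost. Among lncRNA genes, 25.4% were lower. A single CEL-seq2 cell, described with the spread between cells, carried the NEAT1 call. Without it NEAT1 stood at 341 CPM in the second library, and 3 of 8 members remained past 2-fold, KCNQ1OT1, NORAD and MIAT. Of the lists, PSPC1 (2.91- and 2.19-fold), SRRM1 (2.53- and 2.41-fold) and the partner genes PUM2 (2.75- and 2.85-fold) and KHDRBS1 (2.54- and 2.02-fold) were lower in CEL-seq2 lysate. None of 4 tested in the KCNQ1OT1 domain passed.

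In SMART-seq V4, where values are reads, none of the 7 members tested passed 2-fold against both lysate sets, beside 28.1% of all genes and medians of 0.28 and 0.18 (log2). With the second set this comparison holds matching wells on both sides. MALAT1 took 2650 CPM in cells and 1595 and 2441 in the lysate sets. NEAT1 took 73.9 in cells and 75.5 and 83.8 in lysate. TUG1 was 5.70-fold (4.14 to 7.97) and 1.79-fold lower in lysate, but was seen in only 3 of 6 cells, and without the 6 matching wells it stood at 10.04 CPM in the second set and became the 1 member past 2-fold. At 1.5-fold it was the 1 member to pass with all wells, beside 41.9% of genes. OIP5-AS1 was 1.74- and 1.495-fold and KCNQ1OT1 1.35- and 1.56-fold higher in lysate. OIP5, which overlaps OIP5-AS1 on the opposite strand, took 103 reads in cells and 310 and 365 in the lysate sets, beside 146, 418 and 560 for OIP5-AS1. NORAD took 11.8 to 25.6 CPM in the 3 tables, CYTOR 8.99 to 15.7, and MIAT 2 reads in all. SFPQ, PUM2 and SLC22A18 were higher and PHLDA2 lower in both lysate sets.

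How far single cells differed in these RNAs was compared with lysate wells, in which all wells hold the same mixture, by the coefficient of variation (CV, SD over mean after scaling each well to the median total of its library). MALAT1 was the 1 of 4 members with enough UMIs whose CV was higher in both LAST-seq cell libraries (0.820 and 1.56) than in lysate (0.720), beside 13.2% of the 6549 genes tested. MALAT1 had a mean of 1.70, 1.40 and 1.86 scaled UMIs per well in these libraries, and genes of a similar mean had median CVs of 0.790 and 0.856 in the cell libraries. NEAT1 (0.288 and 0.463), NORAD (0.237 and 0.154) and OIP5-AS1 (0.211 and 0.174) varied less between cells than between lysate wells (0.557, 0.430 and 0.322), but these had fewer UMIs per well in lysate. Against the RNA wells, MALAT1 was the 1 of 6 members with a higher CV in both cell libraries, beside 26.3% of genes. Its mean in the RNA wells was 5.23 scaled UMIs, with a CV of 0.443, and Poisson counting alone would give 0.437 at that mean and 0.768 and 0.846 at the means of the cells, so the lower mean in cells alone gives a higher CV. Binomial sampling at a capture of 0.35, the efficiency taken from the study's model, would give NORAD a CV of 0.174 in the first cell library, where it had 0.237, and of 0.156 in the second, where it had 0.154.

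In CEL-seq2, the CVs of MALAT1, NEAT1 and CYTOR were higher in both cell libraries than in lysate, and in the second library 1 cell stood apart. The share of all genes with a higher CV in both CEL-seq2 cell libraries was not computed. MALAT1 had a CV of 0.413 and 0.842 in the cell libraries and 0.257 in lysate, and NEAT1 of 0.539 and 1.41, with 0.358 in lysate. CYTOR had 1.54 and 0.929, with 0.807 in lysate, from 11, 27 and 10 UMIs. Genes of a mean similar to MALAT1 also had a higher median CV in cells (0.218 and 0.298) than in lysate (0.133). Those of a mean similar to NEAT1 had 0.266 and 0.339 in cells and 0.300 in lysate. In the second library the cell with the fewest UMIs (80558) had the highest level of 6 of 8 members, with NEAT1 at 2905 CPM where the next cell had 682, NORAD at 633 where the next had 207, and KCNQ1OT1 at 857 where the next had 427. Without that cell the CVs in this library were 0.611 for NEAT1, 0.466 for NORAD, 0.714 for KCNQ1OT1 and 0.748 for MALAT1. OIP5-AS1 in the first CEL-seq2 library was the most even of the members there, at a CV of 0.156 against a median of 0.353 over genes of similar mean. In SMART-seq cells, CVs of the detected members ran from 0.515 for MALAT1 to 2.19 for KCNQ1OT1.

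The eHAP1 counts had gaps at low values, which touch low members. Among genes with a mean of 1 to 3 UMIs per cell, 28.0% to 56.9% in the 4 eHAP1 batches had no cell at exactly 2 UMIs although at least 5 cells had more. In the HEK293T libraries the share was 0.0577% to 4.36%. These had only 6 to 16 wells against 73 to 77 cells, and so few wells seldom meet this rule, so their share is no like comparison. Whether processing made the gaps was not tested. The study's methods describe a count-based batch removal (ComBat-seq), and whether it was applied before these tables were deposited is not given in the sources used here, so the 2 batches may not be independent and p-values over them may be too small. The KCNQ1OT1 counts had such gaps, as 25 WT cells of batch 2 had 1 UMI, none had 2, 2 had 3 and 13 had 4, and in SCC4KO batch 2, 33 cells had 1 UMI, none had 2 or 3, and 7 had 4. In WT batch 1, 19 cells had 1, 25 had 2 and 9 had 3, while in SCC4KO batch 1, 34 had 1, 24 had 2, 9 had 3 and none had 4.

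**Figure D4:**
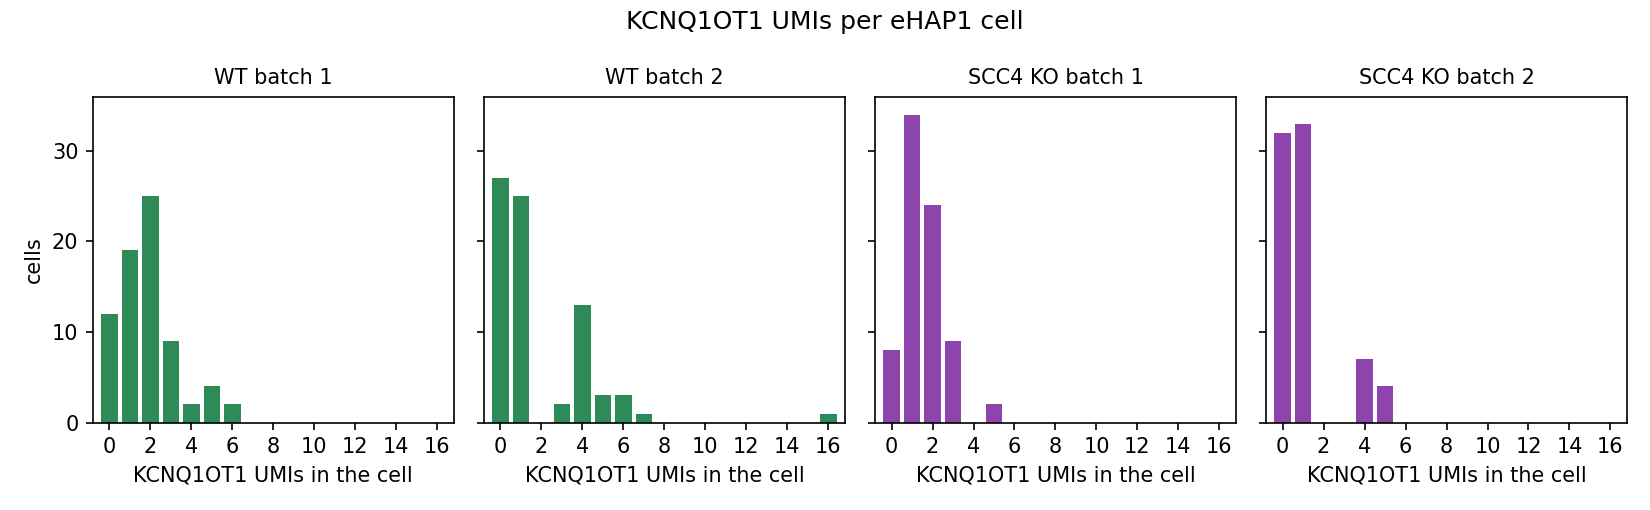
Number of eHAP1 cells (vertical axis) with each number of KCNQ1OT1 UMIs (horizontal axis) in the 2 batches of WT and SCC4KO cells. Batch 2 of both genotypes has no cell at 2 UMIs between filled bars at 1 and 4.

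In eHAP1 cells MAU2, the SCC4 gene and part of the cohesin loader, was checked first. It stood at 44.2 CPM in WT and 9.17 in SCC4KO cells in batch 1 (326 and 59 UMIs, 4.82-fold) and at 41.2 and 14.5 in batch 2 (507 and 169 UMIs, 2.85-fold). Without SCC4, MALAT1, NEAT1 and TUG1 stood lower and NORAD higher in both batches, by less than 2-fold, OIP5-AS1 stood at 1.06 and 1.04 times WT, KCNQ1OT1 at 1.002 and 0.614 times and MIAT at 0.943 and 2.44 times. Past 2-fold in both batches were 0 of 7 members tested, beside 12.1% of 17250 genes (6.82% higher, 5.31% lower) and 21.5% of lncRNA genes, with CYTOR under the count minimum. Each genotype was 1 deposited sample, so its 2 batches give no spread between samples of a genotype.

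MALAT1 stood at 92.0 and 96.0 CPM in the 2 WT batches and at 57.3 and 57.5 in SCC4KO, 1.60- and 1.67-fold lower. Its cells ran from 14.5 over a median of 89.9 to 211 in WT batch 1 and from 0 over 54.3 to 204 in SCC4KO batch 1, and from 0 over 94.1 to 189 and 17.9 over 50.9 to 158 in batch 2. The cells of the genotypes overlapped in both batches while their medians lay apart. NEAT1 stood at 234 and 241 in WT and 157 and 156 in SCC4KO, 1.49- and 1.55-fold lower, with cell medians of 228 and 234 against 149.6 and 156. TUG1 stood at 39.6 and 35.1 in WT and 24.4 and 27.0 in SCC4KO, 1.62- and 1.30-fold lower.

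NORAD was the member that stood higher, with 111 CPM in both WT batches and 149 and 151 in SCC4KO, 1.34- and 1.35-fold. Its cell medians were 106 and 108 in WT and 152 in both SCC4KO batches, again with overlapping cells. OVCH1-AS1, its near copy, had 25 and 35 UMIs in WT and 67 and 108 in SCC4KO, few beside 815 to 1758 for NORAD. OIP5-AS1 stood at 182 in both WT batches and at 192 and 190.1 in SCC4KO. KCNQ1OT1 stood at 18.5 in both genotypes in batch 1 and at 11.3 in WT and 6.94 in SCC4KO in batch 2. Its UMIs numbered 136 and 119 in batch 1 and 139 and 81 in batch 2, although batch 2 was deeper. Over SCC4KO cells of both batches its share fell with the total UMIs of a cell (Spearman -0.533), and over WT cells the value was -0.0935. The part of depth or processing in its lower level in batch 2 was not tested. MIAT stood at 10.7 in WT and 10.1 in SCC4KO in batch 1 and at 4.31 and 10.5 in batch 2. CYTOR had no UMI in WT and 8 and 1 UMIs in SCC4KO, and the sum with MIR4435-2HG was 3.53 and 2.03 CPM in WT and 6.68 and 2.74 in SCC4KO.

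**Figure D5:**
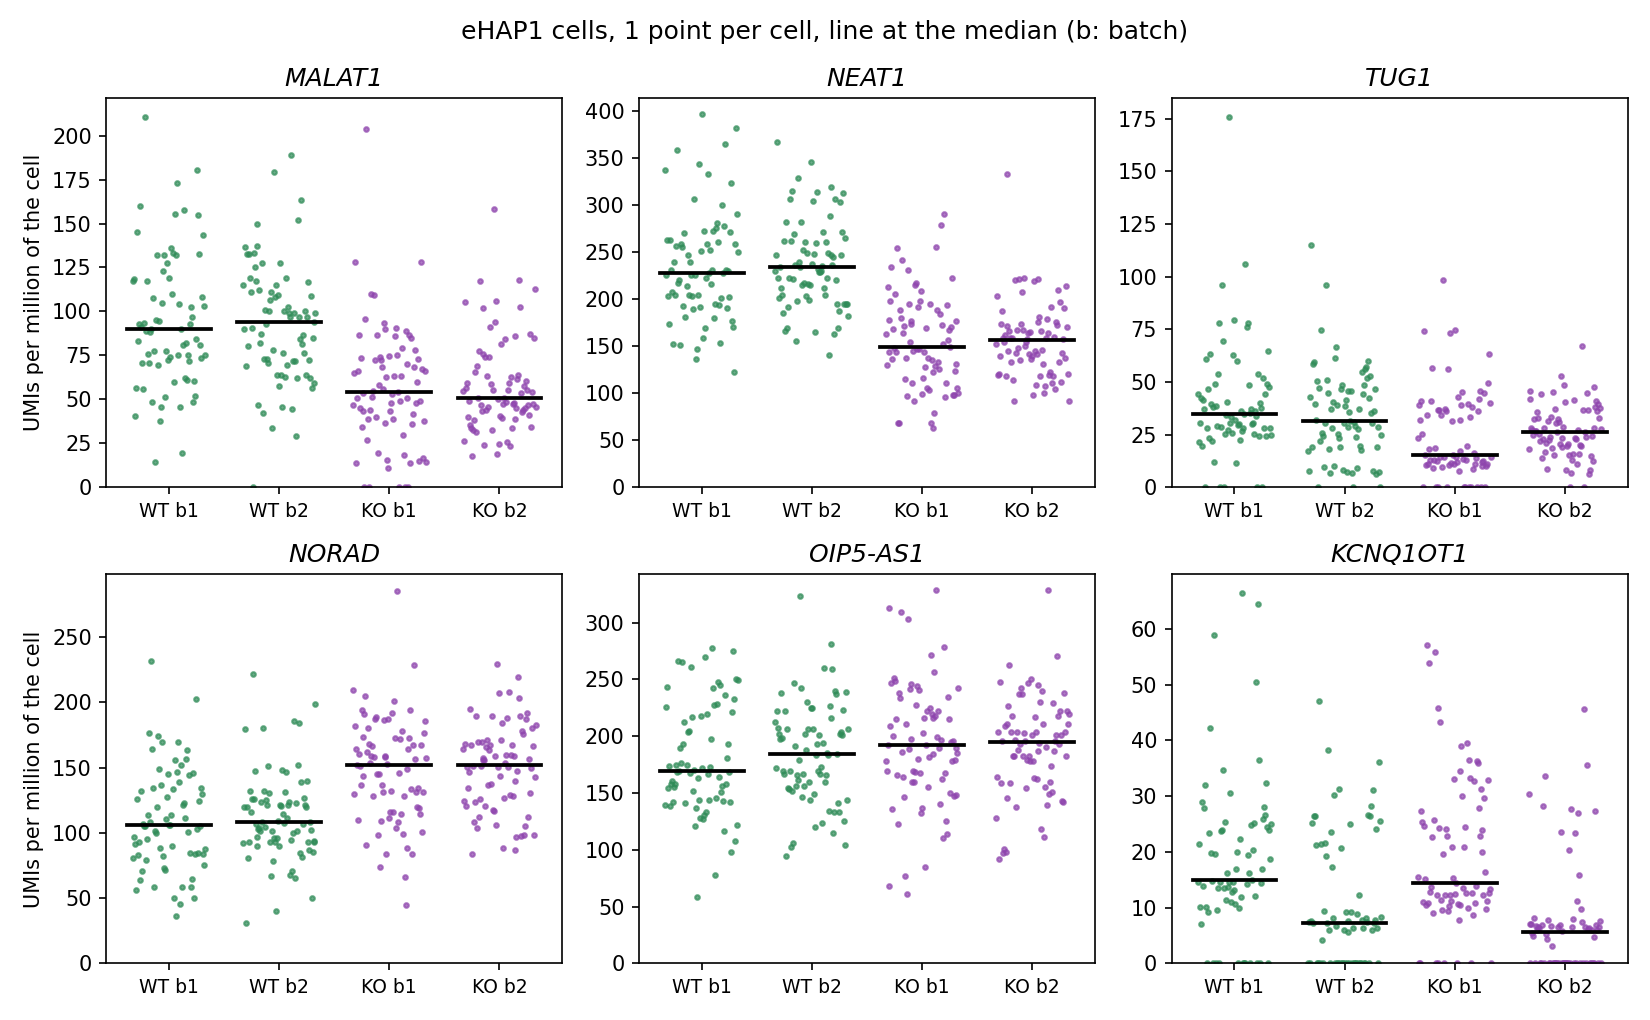
CPM in each eHAP1 cell for 6 members by genotype and batch, with a line at each median. The MALAT1 and NEAT1 medians are lower and the NORAD medians higher in SCC4KO cells of both batches, and the cells of the genotypes overlap throughout.

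The differences were small, and which of them were called depended on the rule. At 1.5-fold in both batches, MALAT1 alone of 7 passed, beside 25.6% of all genes. In a fit on the sums per batch, edgeR called 4 members: MALAT1 at -0.78 ± 0.07 (log2, SE, n = 2 batches each, edgeR adjusted p = 4.12e-05), NEAT1 at -0.67 ± 0.06 (adjusted p = 5.23e-05), TUG1 at -0.59 ± 0.11 (adjusted p = 0.00268) and NORAD at 0.36 ± 0.06 (adjusted p = 0.00152). OIP5-AS1 (0.00, adjusted p = 0.980), KCNQ1OT1 (-0.30, 0.665) and MIAT (0.43, 0.543) were not called, and 29.4% of 15071 genes were. The median gene stood at -0.02 and 0.11 (log2) in the 2 batches. The SCC4KO cells descend from edited single cells, so the knockout and the clone cannot be told apart.

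Of the lists, no paraspeckle protein of 9 and no partner of 5 passed 2-fold in both batches. Of 8 speckle-linked genes, SRRM1 was higher in SCC4KO (2.81- and 2.29-fold) and SON lower (2.68- and 2.80-fold). In the KCNQ1OT1 domain, KCNQ1, the gene that KCNQ1OT1 lies inside, had no UMI in WT and 22 and 57 in SCC4KO. With the WT count of 0 taken as 3 it was 8.40- and 20.01-fold higher, and it was the 1 of 6 tested that passed. In the same batches KCNQ1OT1 had 136 and 139 UMIs in WT and 119 and 81 in SCC4KO, so in WT its UMIs were not also counted for KCNQ1. The strand from which the KCNQ1 UMIs in SCC4KO came is not known, because counting by strand is not given.

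Between eHAP1 cells, the CVs of MALAT1, NEAT1, NORAD and OIP5-AS1 were 0.861 to 1.23 times the median of genes of similar mean. MALAT1 had CVs of 0.408 and 0.366 in the WT batches and 0.605 and 0.461 in SCC4KO, where similar genes had medians of 0.371, 0.323, 0.511 and 0.375, and its mean was lower in SCC4KO. NEAT1 had 0.249 and 0.199 in WT and 0.323 and 0.251 in SCC4KO, NORAD 0.352 and 0.301 against 0.271 and 0.221, and OIP5-AS1 0.275 and 0.240 against 0.281 and 0.229.

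The genes whose share of UMIs followed a member most closely over the 148 WT cells, out of 3651 genes that averaged 5 UMIs or more, were NFIX for MALAT1 (Spearman 0.32), BRD8 for NEAT1 (0.33), STMP1 for NORAD (0.31) and the unnamed ENSG00000218426 for OIP5-AS1 (0.34). Next came EPB41L4A-AS1 (0.28) and TTC1 (0.27) for MALAT1, EIF3A and MT-TL1 (0.27 each) for NEAT1, SMAD1 (0.30) and IST1 (0.29) for NORAD, and AP1M1 (0.29) and CDKN2C (0.28) for OIP5-AS1. Over the 153 SCC4KO cells the same 12 pairs had values of -0.15 to 0.09. MALAT1 and NEAT1 had 0.17 over WT and -0.13 over SCC4KO cells. Cells of a batch share library and depth, and these weak values are a description only.

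Across cell lines in LAST-seq, MALAT1, NEAT1, TUG1 and MIAT were over 2-fold higher in eHAP1 WT than in HEK293T cells. MALAT1 was 8.19- to 12.1-fold higher over the 4 pairs of library and batch, NEAT1 5.95- to 6.74-fold and TUG1 2.94- to 3.52-fold. MIAT was between 3.25-fold (0.857 to 27.6) and 15.3-fold (2.66 to 611) higher, from 79 and 53 UMIs in eHAP1 against 1 and 2 in HEK293T. CYTOR was at least 35.8- to 89.2-fold lower, taking the 0 UMIs of each eHAP1 batch as 3, but reads may be split with its near copy MIR4435-2HG. Summed over both genes the level was 42.8 and 25.8 CPM in HEK293T and 3.53 and 2.03 in eHAP1 WT, a smaller difference in the same direction.

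NORAD was 1.35- to 1.55-fold lower in eHAP1, OIP5-AS1 1.29- to 1.60-fold higher and KCNQ1OT1 1.07- to 5.26-fold higher, all short of 2-fold in at least 1 pair. So 5 of 8 members passed in all 4 pairs, 4 higher and 1 lower, beside 22.6% of 15997 genes (9.75% higher, 12.9% lower) and medians of -0.11 to -0.31 (log2). Even in eHAP1, the 92.0 to 96.0 CPM of MALAT1 stayed below its level in any CEL-seq2 or, counted in reads, SMART-seq library of HEK293T cells. SON, SRRM1 and CDKN1C were higher and HNRNPK lower in eHAP1, 2 of 8, 1 of 5 tested and 1 of 9 of their lists. The cell lines were prepared in separate experiments, so cell line and experiment cannot be told apart.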

How the data were processed

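Demultiplexing was done with bcl2fastq 2.20 per the labels. The values used are counts per gene and well that the authors deposited: UMIs for LAST-seq and CEL-seq2, reads for SMART-seq V4 after subsampling to equal depth. Ensembl identifiers were matched to symbols through GENCODE release 44 (GRCh38), a later release than the study's. Spike-ins were left out of library totals. The 8 members, the gene lists and the tests were chosen with earlier results of these data known.

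Counts were summed over the wells of each library or batch, because wells were pooled before amplification and are not replicates. Single HEK293T cells by LAST-seq and CEL-seq2 were compared with edgeR 4.0.16 (R 4.3.3; quasi-likelihood test, TMM, filterByExpr, Benjamini-Hochberg over all genes tested, threshold 0.05). All other groups hold 1 deposited sample on a side, so counts per 1000000 gene counts (CPM) were compared at 2-fold against every library of the other group, for genes with a summed count of at least 10, with exact Poisson or conditional binomial 95% intervals. A fold against a count of 0 takes 3 counts. An SE beside an edgeR difference was derived from the F statistic of its test. The CV needed a mean of at least 1 count in both groups.

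Named were the 8 members, MAU2, overlapping genes and near copies, list genes past a threshold (some items are not reported here), and the 3 genes most like each member with a mean of at least 5 UMIs. On simulated data edgeR recovered 181 of 200 genes changed 4-fold, with 9 false calls among 11271 genes, for LAST-seq against CEL-seq2. For SCC4KO against WT it recovered 185 of 200, with 2 false calls among 15071. The simulation gave all genes the same fixed spread, not estimated from these libraries. Its counts therefore do not give the error rates on the real data. Alternatives were DESeq2 1.42.0, other scalings, filters and thresholds, medians over wells, single libraries left out, and others added after seeing the data.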

Additional observations from a re-analysis of the deposited data

Results flagged for a closer look

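The ratios of lysate over intact HEK293T cells of MALAT1 and KCNQ1OT1 stood on opposite sides of 1 in LAST-seq and in CEL-seq2. For MALAT1 the mean log2 ratio of lysate over the 2 single-cell libraries was 1.26 in LAST-seq and -0.55 in CEL-seq2. For KCNQ1OT1 it was 1.30 in LAST-seq and -2.66 in CEL-seq2. Every cell library of LAST-seq stood below its lysate and every cell library of CEL-seq2 above it, for both RNAs. KCNQ1OT1 in LAST-seq and MALAT1 in CEL-seq2 did not pass 2-fold, and the median gene in CEL-seq2 stood at -0.60 and -0.35. The difference between the assays was not tested, each had 1 lysate library, and the LAST-seq values rest on 18 MALAT1 and 12 KCNQ1OT1 UMIs in lysate.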

How the results depend on the processing

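The 5 members called between LAST-seq and CEL-seq2 stayed 5 under DESeq2, scaling by library size alone, no filter, the replicate block and without the outlying CEL-seq2 cell, and 4 without any 1 library, MIAT being lost. The difference in OIP5-AS1, not called, reversed to -0.27 with library size alone, and without 1 CEL-seq2 library was -0.068 to 0.27. Deviations of same-numbered libraries had a correlation of -0.00708 between the assays and 0.00234 between the eHAP1 genotypes. A batch removal before deposit could take away such a correlation, so the eHAP1 value cannot show whether same-numbered batches are paired. The replicate block gave 5 members for the assays and 4 for SCC4KO against WT, as did edgeR without the block.

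Members past the fold in LAST-seq lysate numbered 1 (MALAT1) with medians over wells and 3 to 4 without 1 cell library (NORAD joining without the first, KCNQ1OT1 and CYTOR without the second), against 2. In 15-pg RNA they numbered 4 at 1.5-fold and 1 to 3 without 1 cell library (NEAT1 and KCNQ1OT1 joining without the first), against 1. In CEL-seq2 lysate they were 2 with TMM scaling (KCNQ1OT1, MIAT) and 2 with medians over wells (NORAD, KCNQ1OT1), and 4 to 5 without 1 cell library, against 4. In SMART-seq they were 1 at 1.5-fold, 2 with medians over wells (OIP5-AS1, TUG1), 0 to 1 without 1 lysate set (TUG1, without the second) and 1 (TUG1) without the matching wells, against 0. For SCC4KO against WT they were 1 at 1.5-fold (MALAT1), 0 to 1 with 1 batch left out (MIAT, without the first), and 4 with edgeR or DESeq2, against 0. For eHAP1 against HEK293T they were 3 with medians over wells, against 5. The cause of these changes was not tested. The count of 1 member with a higher CV in LAST-seq cells held in all settings run.

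Depth limits MALAT1, KCNQ1OT1, TUG1 and MIAT in LAST-seq HEK293T libraries, where totals of 0 to 51 UMIs leave intervals of 2-fold and more, and 1 lysate, RNA or knockout sample gives no replicate error. The eHAP1 gaps at low counts touch KCNQ1OT1 and MIAT, the only members examined for them. TUG1, with a mean of 2.01 scaled UMIs in SCC4KO batch 1, was in the affected range and was not examined.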
